A study of Mus musculus with 33 samples.

Results

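The matrix metalloproteases (MMPs), the ADAMTS proteases and ADAMTS-like proteins, and their inhibitors the TIMPs were described across the cell classes of the adult mouse colon mesenchyme. Members were all genes whose symbol was Mmp, Adamts, Adamtsl or Timp followed by a number, with at most 1 further letter allowed for Mmp. This gave 50 of the 31053 genes of the count matrices: 22 Mmp, 19 Adamts, 5 Adamtsl and 4 Timp genes. The rule reads gene symbols and no measured value, although it was chosen with earlier results of these data known.

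MMPs are zinc proteases made as inactive precursors, and most are secreted while a few are held at the cell surface. Together they cut collagens, gelatin, proteoglycans and other matrix and surface proteins. ADAMTS proteases are secreted and carry thrombospondin motifs that bind matrix; some cut proteoglycans such as versican and aggrecan, others trim procollagens, and the ADAMTS-like proteins lack the protease domain. TIMPs bind active MMPs and, to differing extents, ADAM and ADAMTS proteases, and block them. In the gut wall fibroblasts are a main source of matrix and of the enzymes that turn it over.

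The series lists 33 samples, of which 3 single-cell libraries of the colon were used. One library held whole mesenchyme cells sorted as EpCAM- CD45- from mice whose genotype is given as control (1 library). The other libraries held GFP-low cells from PdgfraH2BeGFP mice, in which a nuclear green fluorescent protein is made from the Pdgfra locus, sorted without staining by GFP level (replicates 1 and 2, called GFP-low 1 and GFP-low 2 here). All mice were adult and of both sexes, and none was treated. Exact ages, the limits of the GFP gate and the number of animals behind a library are not stated. Before sorting, the muscle layer was removed, the epithelium was released with EDTA and the tissue was digested with collagenase, per the labels. Whether the replicates are separate animals is not stated either, so a p-value here reflects the scatter of these libraries alone, and that scatter may be technical.

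After filtering the whole mesenchyme library kept 6793 cells and the GFP-low libraries 4834 and 6025, with medians of 4429, 6446.5 and 7025 unique molecular identifiers (UMIs, each a counted transcript) per cell. The libraries shared between 6 and 11 cell barcodes pairwise. Cells were gated on marker genes, none of them a member. Values for the 3 libraries are always given in the order whole mesenchyme, GFP-low 1, GFP-low 2. There were 3166, 897 and 1168 Adamdec1 fibroblasts, and 496, 3329 and 4311 Cd81 fibroblasts. There were 1208, 23 and 29 telocyte-like cells. Blood endothelium (765 cells), lymphatic endothelium (61), pericytes (51), smooth muscle (155) and glia (50) were described in whole mesenchyme, and immune cells (93 and 49) in the GFP-low libraries. Levels are given as CPM, the UMI counts of a gene per 1000000 UMIs summed over the class. Wnt5a, a telocyte ligand not used for the gates, was at 215, 520 and 353 CPM in the telocyte-like cells. In either fibroblast class Wnt5a was at most 31.1 CPM. The member Adamtsl3 was at 1.97 CPM in the telocyte-like cells of whole mesenchyme. In those of the GFP-low libraries it was at 38.2 CPM (5 UMIs) and 57.5 CPM (7 UMIs). Cd81 fibroblasts of the GFP-low libraries held Adamtsl3 at 108 and 126 CPM. Whether the telocyte-like cells are the same kind of cell in all libraries was not tested. Free RNA was measurable, since barcodes with 10 to 100 UMIs held Adamdec1 at 9966 CPM in whole mesenchyme against 1959 and 1550 CPM in the GFP-low libraries. The telocyte-like cells of whole mesenchyme carried Adamdec1 at 10287 CPM. GFP-low immune cells carried it at 3423 and 5477 CPM, and whole mesenchyme smooth muscle and pericytes at 7652 and 3210 CPM. In blood and lymphatic endothelium and glia it was between 1829 and 1869 CPM. The part of free RNA in the levels of these classes was not tested.

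Of the 50 members, 34 had at least 20 UMIs in some class of a library. Another 6, Mmp1b, Mmp7, Mmp12, Mmp20, Mmp21 and Adamts16, had 0 UMIs in all gated classes. The remaining members, Mmp8, Mmp9, Mmp13, Mmp24, Mmp25, Mmp28, Adamts13, Adamts18, Adamts20 and Timp4, were below 20 UMIs in every class. The 34 included Mmp2, Mmp3, Mmp10 and Mmp11, membrane-anchored MMPs, Mmp19, Mmp27, most ADAMTS genes, all 5 ADAMTS-like genes and 3 TIMPs. The collagenases proper, the matrilysin Mmp7 and the metalloelastase Mmp12 were at or near 0. A level of 0 UMIs limits the RNA captured from these cells and says nothing of protein.

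**Figure D1:**
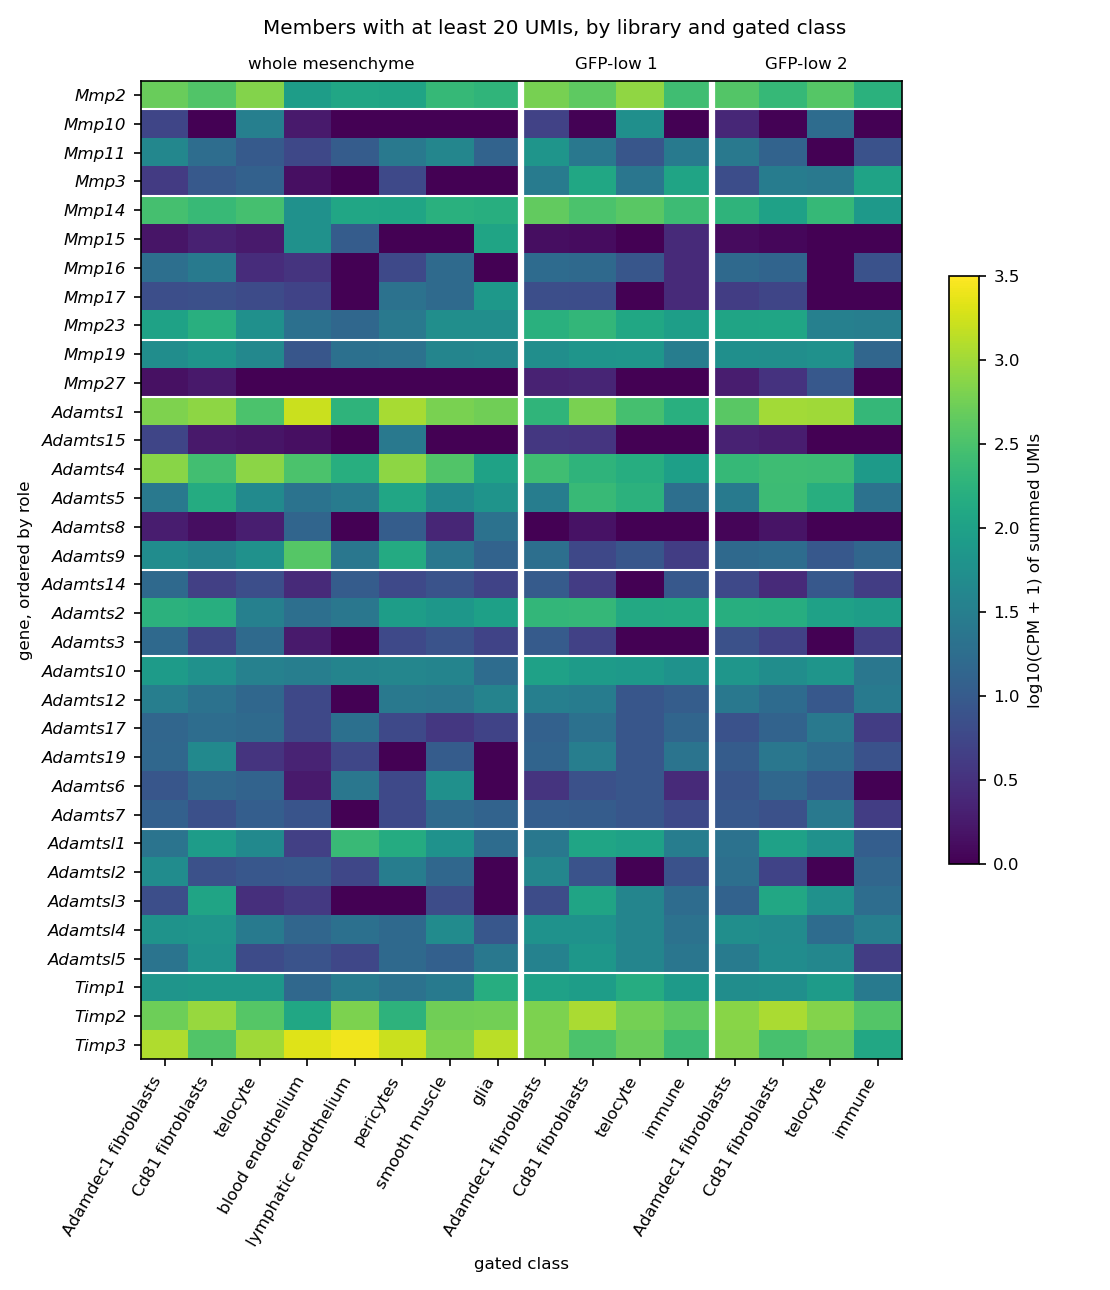
Level of the 34 members with at least 20 UMIs (rows, ordered by role, separated by thin lines) in each gated class of each library (columns), as log10(CPM + 1) of UMIs summed per class. In whole mesenchyme Timp3 was at 2639 CPM in lymphatic endothelium, Adamts1 at 1661 CPM in blood endothelium, and Mmp15 above 50 CPM only in glia and blood endothelium.

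The vessel, nerve and muscle classes of whole mesenchyme held the highest level of 11 members. This count covers the 34 members with at least 10 UMIs in a class of that library, and only classes with at least 10 UMIs of a member were ranked for it. For 10 members the highest level was in Cd81 fibroblasts, for 7 in Adamdec1 fibroblasts and for 6 in telocyte-like cells. Adamts12, placed in Adamdec1 fibroblasts at 30 CPM, was at 36.1 CPM in glia on 9 UMIs. Some placings were near ties, such as Mmp14 at 295 CPM in telocyte-like cells and 293 CPM in Adamdec1 fibroblasts. These levels come from 1 library, have no replicate check and carry exact Poisson 95% intervals that cover counting error only. Timp3, the inhibitor that stays bound to matrix, reached 2639 CPM (2427 to 2865) in lymphatic endothelium, 2112 CPM (2055 to 2169) in blood endothelium and 1669 CPM (1496 to 1856) in pericytes. Adamdec1 fibroblasts were at 1197 CPM and Cd81 fibroblasts at 356 CPM. Glia were at 1394 CPM (1251 to 1548) and telocyte-like cells at 1007 CPM. The vessel classes and glia thus lay above both fibroblast classes beyond counting error.

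The proteoglycan-cleaving enzymes Adamts1 and Adamts9 also had their highest whole mesenchyme level in blood endothelium. Adamts1 was at 1661 CPM (1610 to 1712) there, at 1113 CPM (972 to 1268) in pericytes and at 659 CPM in Adamdec1 fibroblasts. Adamts9 was at 376 CPM (353 to 401) in blood endothelium, at 138 CPM (91.6 to 199) in pericytes and at 49.2 CPM in Adamdec1 fibroblasts. Adamts8, an enzyme of the same group, had 32 UMIs or 12.8 CPM (8.74 to 18) in blood endothelium against 0.924 CPM in Adamdec1 fibroblasts; glia had 5 UMIs of it (20.1 CPM, 6.52 to 46.9). Adamts4, a further aggrecanase, was instead alike in pericytes (807 CPM, 689 to 941) and telocyte-like cells (773 CPM, 749 to 798), whose intervals overlap.

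Mmp15, which encodes the membrane-anchored protease MT2-MMP, was measured in glia and blood endothelium and was nearly missing from fibroblasts. It was at 108 CPM (71.5 to 158, 27 UMIs) in glia and 57.9 CPM (48.8 to 68.1, 145 UMIs) in blood endothelium. In Adamdec1 and Cd81 fibroblasts of the 3 libraries it did not exceed 1.08 CPM. Mmp17, a glycolipid-anchored MMP, was at 72.3 CPM (42.8 to 114, 18 UMIs) in glia and at 5.85 CPM in Adamdec1 fibroblasts. Timp1, an inducible inhibitor, was at 153 CPM (108 to 209) in glia and 65, 69.8 and 69.5 CPM in the Adamdec1, Cd81 and telocyte-like cells of that library. Adamts6 was highest in smooth muscle, with 56.2 CPM (40.3 to 76.3) against 14.4 CPM in Cd81 fibroblasts. Adamtsl1 was highest in lymphatic endothelium, with 232 CPM (172 to 306), ahead of pericytes with 143 CPM (95.6 to 205). The intervals of these 2 classes overlap.

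Mmp3 and Mmp10 encode the stromelysins 1 and 2, which cut proteoglycans, laminin and fibronectin and can activate other MMPs. They are neighbours in a cluster of 9 members on chromosome 9 (mm10, chr9:7272514-7699585), with Mmp3 at chr9:7445822-7455975 and Mmp10 at chr9:7502342-7510242, 46.4 kb apart. Of the 9 genes of the cluster 3, Mmp3, Mmp10 and Mmp27, had at least 20 UMIs in a class. The promoters of both stromelysins are shown because the genes lie side by side yet differed in opposite directions between the fibroblast classes compared further on, together with that of the collagenase Mmp13 of the same cluster, which stayed below 20 UMIs. The sequences, from RefSeq (GRCm38.p6, the build called mm10), run 5′ to 3′ on the plus strand from 250 bases before to 50 bases after the annotated start. Capitals mark TGANTCA, the motif bound by AP-1 factors, and TATAAA, the letters of the TATA box motif, at any distance from the annotated start.
Mmp3, chr9:7445572-7445871: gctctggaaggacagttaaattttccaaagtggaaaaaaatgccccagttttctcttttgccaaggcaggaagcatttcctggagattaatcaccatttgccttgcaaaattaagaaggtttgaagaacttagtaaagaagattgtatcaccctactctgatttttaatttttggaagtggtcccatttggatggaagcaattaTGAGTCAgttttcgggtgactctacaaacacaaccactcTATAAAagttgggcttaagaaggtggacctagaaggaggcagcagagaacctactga
Mmp10, chr9:7502092-7502391: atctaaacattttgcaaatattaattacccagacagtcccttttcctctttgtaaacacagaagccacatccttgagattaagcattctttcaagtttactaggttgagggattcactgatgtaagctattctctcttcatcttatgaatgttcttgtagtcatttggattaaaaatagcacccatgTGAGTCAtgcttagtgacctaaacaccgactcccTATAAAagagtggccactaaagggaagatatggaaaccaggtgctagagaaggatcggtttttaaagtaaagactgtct
Mmp13, chr9:7272264-7272563: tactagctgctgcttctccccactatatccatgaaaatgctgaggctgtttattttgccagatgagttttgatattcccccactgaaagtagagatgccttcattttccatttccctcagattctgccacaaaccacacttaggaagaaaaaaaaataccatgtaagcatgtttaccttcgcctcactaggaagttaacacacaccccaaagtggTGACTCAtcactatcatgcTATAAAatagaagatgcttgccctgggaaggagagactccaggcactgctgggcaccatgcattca
TGANTCA, which reads as TGANTCA on the other strand too, began at -46, -63 and -35 in Mmp3, Mmp10 and Mmp13, counting the base before the start as -1. TATAAA, searched on the gene's strand and not overlapping it, began at -7, -29 and -16. Of the 11 promoters listed for the 9 cluster genes, 7 held TGANTCA and 7 held TATAAA, against 7.81% and 8.32% of the 32851 promoters in the table. Among the 38 promoters found for members (35 genes) the shares were 18.4% and 26.3%, and all 7 with TGANTCA were those of the cluster. Of 6 promoters of members higher with inflammatory markers among Adamdec1 fibroblasts 0 held TGANTCA and 1 held TATAAA. A match describes letters and is no evidence of binding.

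Mmp10 was at 31.7 CPM (27 to 37, 161 UMIs) in the telocyte-like cells of whole mesenchyme. In those of the GFP-low libraries it had 7 UMIs (53.5 CPM, 21.5 to 110) and 2 UMIs (16.4 CPM, 1.99 to 59.3). In Adamdec1 fibroblasts it was at 4.44, 3.85 and 1.46 CPM, and in Cd81 fibroblasts it had 0, 1 and 1 UMIs. Among classes with at least 10 UMIs of it, Mmp3 too had its highest whole mesenchyme level in telocyte-like cells, at 11 CPM (8.33 to 14.3, 56 UMIs). Mmp3 had 3 UMIs in those of each GFP-low library (22.9 CPM, 4.73 to 67, and 24.6 CPM, 5.08 to 72). It was at 8.63, 122 and 28.7 CPM in Cd81 fibroblasts and at 3.08, 27.6 and 5.69 CPM in Adamdec1 fibroblasts. Both genes were thus measured in telocyte-like cells and Adamdec1 fibroblasts, and in Cd81 fibroblasts Mmp3 was measured while Mmp10 was nearly missing. In the GFP-low immune cells Mmp3 was at 111 and 107 CPM. The low-UMI barcodes of the GFP-low libraries held Mmp3 at 126 and 37.8 CPM, and those of whole mesenchyme held 0 UMIs, so the part of free RNA in the Mmp3 levels was not tested.

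The Cd81 fibroblasts were then compared with the Adamdec1 fibroblasts, the former counted against the latter within each library. Cd81 fibroblasts, marked by Cd81, Cd34, Grem1, Clec3b and Pi16, include cells that support epithelial stem cells, and Adamdec1 fibroblasts lie nearer the mucosal surface. UMIs were summed per library and class and tested with edgeR's quasi-likelihood test with the library as a block, and values below are normalised CPM. A filter on low counts kept 32 of the 50 members. Of these 32, 11 were higher and 9 lower in Cd81 fibroblasts, while 12 did not pass an adjusted p of 0.05. Across all 12774 genes tested, 14.3% were higher and 14.8% lower (29.1% in either direction). The groups of 3 libraries did not overlap for 14 of the 32 members, against 27.6% of all genes. The median log2 difference of the tested members was 0.07, beside -0.01 for all genes. The members higher in Cd81 fibroblasts were 5 ADAMTS and 3 ADAMTS-like genes with Mmp3, Mmp23 and Timp2. Those lower were 4 MMPs, 2 procollagen-processing enzymes, Adamts10, Adamtsl2 and Timp3.

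**Figure D2:**
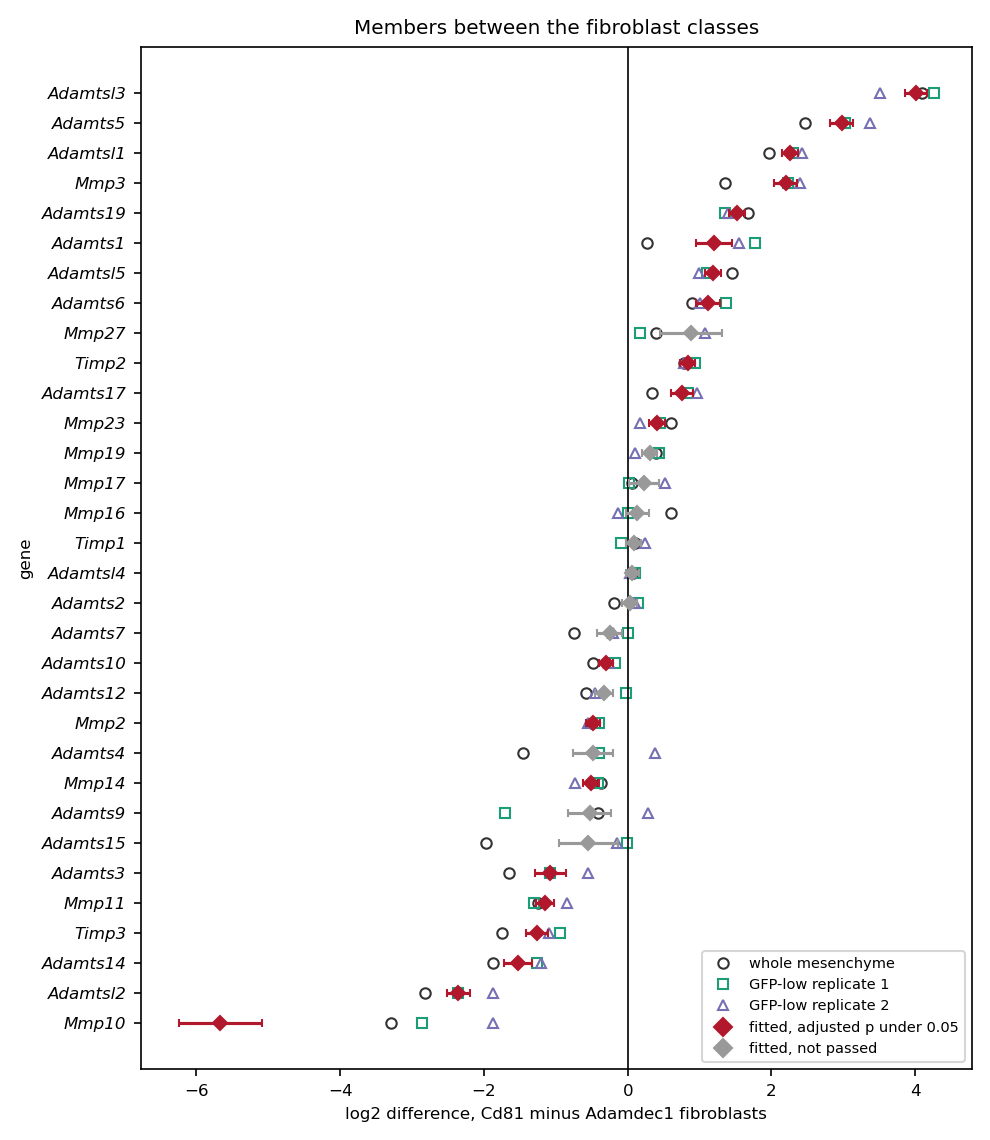
Log2 difference of each tested member between Cd81 and Adamdec1 fibroblasts; diamonds are the fitted values with their standard errors, and open symbols the difference within each library with 0.5 CPM added to both levels. Adamtsl3 and Adamts5 lie farthest to the right, Mmp10 and Adamtsl2 farthest to the left, and the library symbols of Adamts4 and Adamts9 lie on both sides of 0.

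Among the proteoglycan-cleaving enzymes, Adamts5, a main aggrecanase that also cuts versican, was at 138, 220 and 284 CPM in Cd81 fibroblasts. In Adamdec1 fibroblasts it was at 24.6, 26.5 and 27.1 CPM. Every Cd81 value lay above every Adamdec1 value, and the log2 difference was 2.98 ± 0.17 (SE; edgeR adjusted p = 1.3e-06). Its chromosome 16 neighbour Adamts1, 55 kb away, was at 791, 608 and 1179 CPM against 654, 178 and 403 CPM. It was higher in Cd81 fibroblasts in 3 of 3 libraries, but the groups overlap, since the Adamdec1 value of whole mesenchyme exceeds the Cd81 value of GFP-low 1 (log2 difference 1.20 ± 0.25, edgeR adjusted p = 0.00533). The within-library difference of Adamts1 was 0.27 in whole mesenchyme, and 1.77 and 1.55 in the GFP-low libraries. The summed level of 16 dissociation response genes was 44861, 40115 and 53628 CPM in Cd81 fibroblasts against 46930, 30755 and 33583 CPM in Adamdec1 fibroblasts. This sum was higher in Cd81 fibroblasts in the GFP-low libraries and lower in whole mesenchyme. Calls for the single genes of that response are given further on. The part of that response in the Adamts1 result was not tested.

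Adamts4 and Adamts9 did not pass in this comparison. Adamts4 was at 276, 181 and 293 CPM in Cd81 fibroblasts and at 756, 240 and 225 CPM in Adamdec1 fibroblasts. The Adamdec1 value of whole mesenchyme stood far above the other 5 values, and the fitted log2 difference of -0.48 ± 0.27 became 0.000814 without that library. Leaving out GFP-low 2 instead gave -0.91 and a call (edgeR adjusted p = 0.000717). Adamts9 was at 36.5, 4.67 and 18.5 CPM against 48.9, 16.3 and 15.1 CPM, with a log2 difference of -0.53 ± 0.30 that reached -1.02 and passed without GFP-low 2 (edgeR adjusted p = 0.00102). With no filter on low counts both passed at nearly the same size, Adamts4 at -0.48 (edgeR adjusted p = 0.00108) and Adamts9 at -0.53 (0.00037). Adamts15 was at or below 4.29 CPM in every sum and did not pass.

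The ADAMTS-like genes, whose products bind matrix microfibrils without cutting, held the largest difference towards Cd81 fibroblasts among the tested members. Adamtsl3 was at 110, 106 and 142 CPM in Cd81 fibroblasts and at 5.94, 5.03 and 11.9 CPM in Adamdec1 fibroblasts. The groups were far apart, with a log2 difference of 4.01 ± 0.16 (edgeR adjusted p = 2.83e-07). Adamtsl1 was at 84, 109 and 111 CPM against 21.1, 21.8 and 20.2 CPM, without overlap (log2 difference 2.26 ± 0.12, edgeR adjusted p = 8.55e-07). Adamtsl5 was also higher, by 1.19 ± 0.11. Adamtsl2 went the other way, at 6.43, 6.61 and 4.58 CPM against 48.7, 36 and 18.1 CPM, again without overlap. Its log2 difference was -2.35 ± 0.16 (edgeR adjusted p = 4.12e-06). Adamtsl4 lay between 52.8 and 65.1 CPM in all 6 sums and did not pass. Of the 5 genes, 3 were thus higher and 1 lower.

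The procollagen-processing enzymes remove the amino-terminal propeptide of fibrillar collagens. Adamts14 was at 3.57, 3.16 and 1.86 CPM in Cd81 fibroblasts and at 14.4, 8.24 and 4.96 CPM in Adamdec1 fibroblasts, without overlap (log2 difference -1.53 ± 0.20, edgeR adjusted p = 0.000349). Adamts3 was at 4.29, 3.69 and 4.21 CPM against 14.6, 8.39 and 6.43 CPM, also without overlap (-1.08 ± 0.22). Adamts2 lay between 152 and 210 CPM in all 6 sums, with a log2 difference of 0.03 ± 0.11 (edgeR adjusted p = 0.891) that did not pass. Among the other ADAMTS genes, Adamts19 was higher by 1.52 ± 0.12 on the log2 scale, Adamts6 by 1.12 ± 0.17 and Adamts17 by 0.76 ± 0.15. With cells thinned to 1000 UMIs, Adamts3 (edgeR adjusted p = 0.0645) and Adamts6 (0.0983) did not pass. Adamts12, a protease of cartilage matrix proteins, was at 19.7, 27.9 and 17.5 CPM against 29.8, 28.5 and 24.1 CPM. It did not pass (-0.33 ± 0.13, edgeR adjusted p = 0.0847), but did without GFP-low 1 (0.0312), with no filter on low counts (0.0377) and with a stricter gate (0.0338). Adamts10, which acts on fibrillin microfibrils, was lower by a log2 difference of -0.30 ± 0.10 at an edgeR adjusted p of 0.0486, and that call was lost under 10 of 13 alternatives (adjusted p 0.0539 to 0.424).

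Among the MMPs, Mmp3 was at 8.58, 120 and 32.4 normalised CPM in Cd81 fibroblasts and at 3.06, 25.2 and 5.76 in Adamdec1 fibroblasts. It was higher in Cd81 fibroblasts in 3 of 3 libraries although the libraries differ so much that the groups overlap (log2 difference 2.20 ± 0.16, edgeR adjusted p = 6.56e-06). Mmp10 had 2 UMIs over the Cd81 fibroblasts of the 3 libraries against 106 over the Adamdec1 fibroblasts. Pooled in this way the ratio was 94.7 per UMI sequenced in favour of the latter. Its exact 95% interval (25.6 to 793) covers counting error only and ignores the pairing by library. The fit with the library as a block gave Mmp10 a log2 difference of -5.67 (edgeR adjusted p = 6.99e-05). Mmp11, stromelysin 3, was at 16.8, 24.1 and 13.6 CPM against 40.5, 60.2 and 24.9 CPM, without overlap (log2 difference -1.15 ± 0.12, edgeR adjusted p = 8.13e-05).

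The gelatinase Mmp2 and its activator at the cell surface, Mmp14 (MT1-MMP), were both lower in Cd81 fibroblasts. Mmp2 was at 349, 412 and 248 CPM against 492, 544 and 365 CPM, and lower in 3 of 3 libraries with overlapping groups (log2 difference -0.48 ± 0.10, edgeR adjusted p = 0.00639). Mmp14 was at 225, 315 and 113 CPM against 291, 420 and 188 CPM, with the same pattern (-0.51 ± 0.11, edgeR adjusted p = 0.00793); without GFP-low 2 it was at -0.38 and did not pass (edgeR adjusted p = 0.0848). Mmp23, a membrane-anchored MMP, was higher by 0.41 ± 0.11, but did not pass without GFP-low 1 (edgeR adjusted p = 0.108) or with cells thinned to 1000 UMIs, where it was at 0.23 (0.368). Mmp16, Mmp17, Mmp19 and Mmp27 did not pass, Mmp19 with an edgeR adjusted p of 0.0515 that became 0.0247 with no filter on low counts and lay under 0.05 in 3 further alternatives. Outside the fibroblasts, the telocyte-like cells held Mmp2 at 698, 833 and 378 CPM, against 495, 597 and 361 CPM in the Adamdec1 fibroblasts. These are CPM of the class, not normalised between classes. In GFP-low 2 the telocyte interval (276 to 504) includes the fibroblast level. The GFP-low values rest on few cells, which carried more Adamtsl3 than the telocyte-like cells of whole mesenchyme.

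The inhibitors divided. Timp2, which inhibits MMPs and also takes part in the activation of Mmp2 by Mmp14, was at 899, 1115 and 1290 CPM in Cd81 fibroblasts and at 523, 580 and 752 CPM in Adamdec1 fibroblasts, without overlap (log2 difference 0.83 ± 0.10, edgeR adjusted p = 0.000248). Timp3 was at 354, 314 and 338 CPM against 1190, 603 and 726 CPM, also without overlap (-1.26 ± 0.16, edgeR adjusted p = 0.000247). Timp1 lay between 52.4 and 91.2 CPM in all 6 sums and did not pass (0.08 ± 0.10, edgeR adjusted p = 0.588). Timp1 and Timp3 lie inside the neuronal genes Syn1 and Syn3, and the counting of overlapping genes, strand included, is not stated. Syn1 held at most 75 UMIs in a class and Syn3 at most 387.

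The lists of other genes of matrix turnover carry broad names, and not every gene in them encodes an active protease or inhibitor. Of 11 tested activators and other inhibitors 6 were higher in Cd81 fibroblasts and none was lower (median log2 difference 0.37, beside -0.01 for all genes). Pcsk5, a proprotein convertase, was at 551, 740 and 631 CPM against 223, 260 and 237 CPM (1.41 ± 0.11). Serpinf1 (PEDF) was higher by 1.71 ± 0.12. Of 13 cathepsins and other matrix proteases 4 were higher and 5 lower, among them the enhancer of procollagen processing Pcolce2, at 527, 603 and 716 CPM against 5.57, 12.4 and 25.6 CPM (5.62 ± 0.30), and the fibroblast protease Fap (2.71 ± 0.10). Legumain (Lgmn) was lower by -2.31 ± 0.11. The plasminogen system had 2 of 7 higher, with the activator Plat at 2.08 ± 0.15, and 1 lower, its inhibitor Serpine2, at -1.63 ± 0.11. Of 10 ADAM genes 3 were higher and 4 lower, Adam23 at -2.47 ± 0.12. Of 13 substrates and clearance partners 3 were higher, with fibrillin (Fbn1) at 1.52 ± 0.13, and 4 lower, with the basement membrane collagens Col4a1 (-0.75 ± 0.10) and Col4a2 (-0.92 ± 0.11). Of the 16 dissociation response genes 8 were higher and none lower. Without the library block the fit called 5 members higher and 5 lower.

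Within the Cd81 fibroblasts, cells on the side of Pi16, Dpp4, Cd55, Anxa3 and Sema3c were compared with cells on the side of Grem1, Chrdl1, Rspo1, Rspo3 and Sfrp4. Pi16 marks fibroblasts around vessels and in the deep wall, and Grem1, a BMP antagonist, marks stem-cell-supporting fibroblasts. There were 88, 906 and 899 cells on the Pi16 side and 251, 1476 and 2365 on the Grem1 side, and 157, 947 and 1047 cells near the dividing line were left out. Sfrp4, although listed for the Grem1 side, was higher on the Pi16 side (87.8, 93.9 and 76.7 against 12, 39.4 and 23 CPM). Of 30 members tested, 9 were higher and 8 lower on the Pi16 side. Of all 11655 genes 11.4% were higher and 12.4% lower (23.8% in either direction). The sides did not overlap for 8 members, against 16.9% of all genes. The median log2 difference of the members was 0.05, beside 0.01 for all genes. All 3 tested TIMPs (with thinned cells Timp3 alone) were higher on the Pi16 side, and most of the proteoglycan-cleaving enzymes that passed were lower. Of the procollagen-processing enzymes, Adamts2 and Adamts14 were higher, with calls that were lost under several alternatives, and Adamts3 did not pass. This comparison uses the Cd81 fibroblasts that also entered the comparison with Adamdec1 fibroblasts, so its values are given for themselves.

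**Figure D3:**
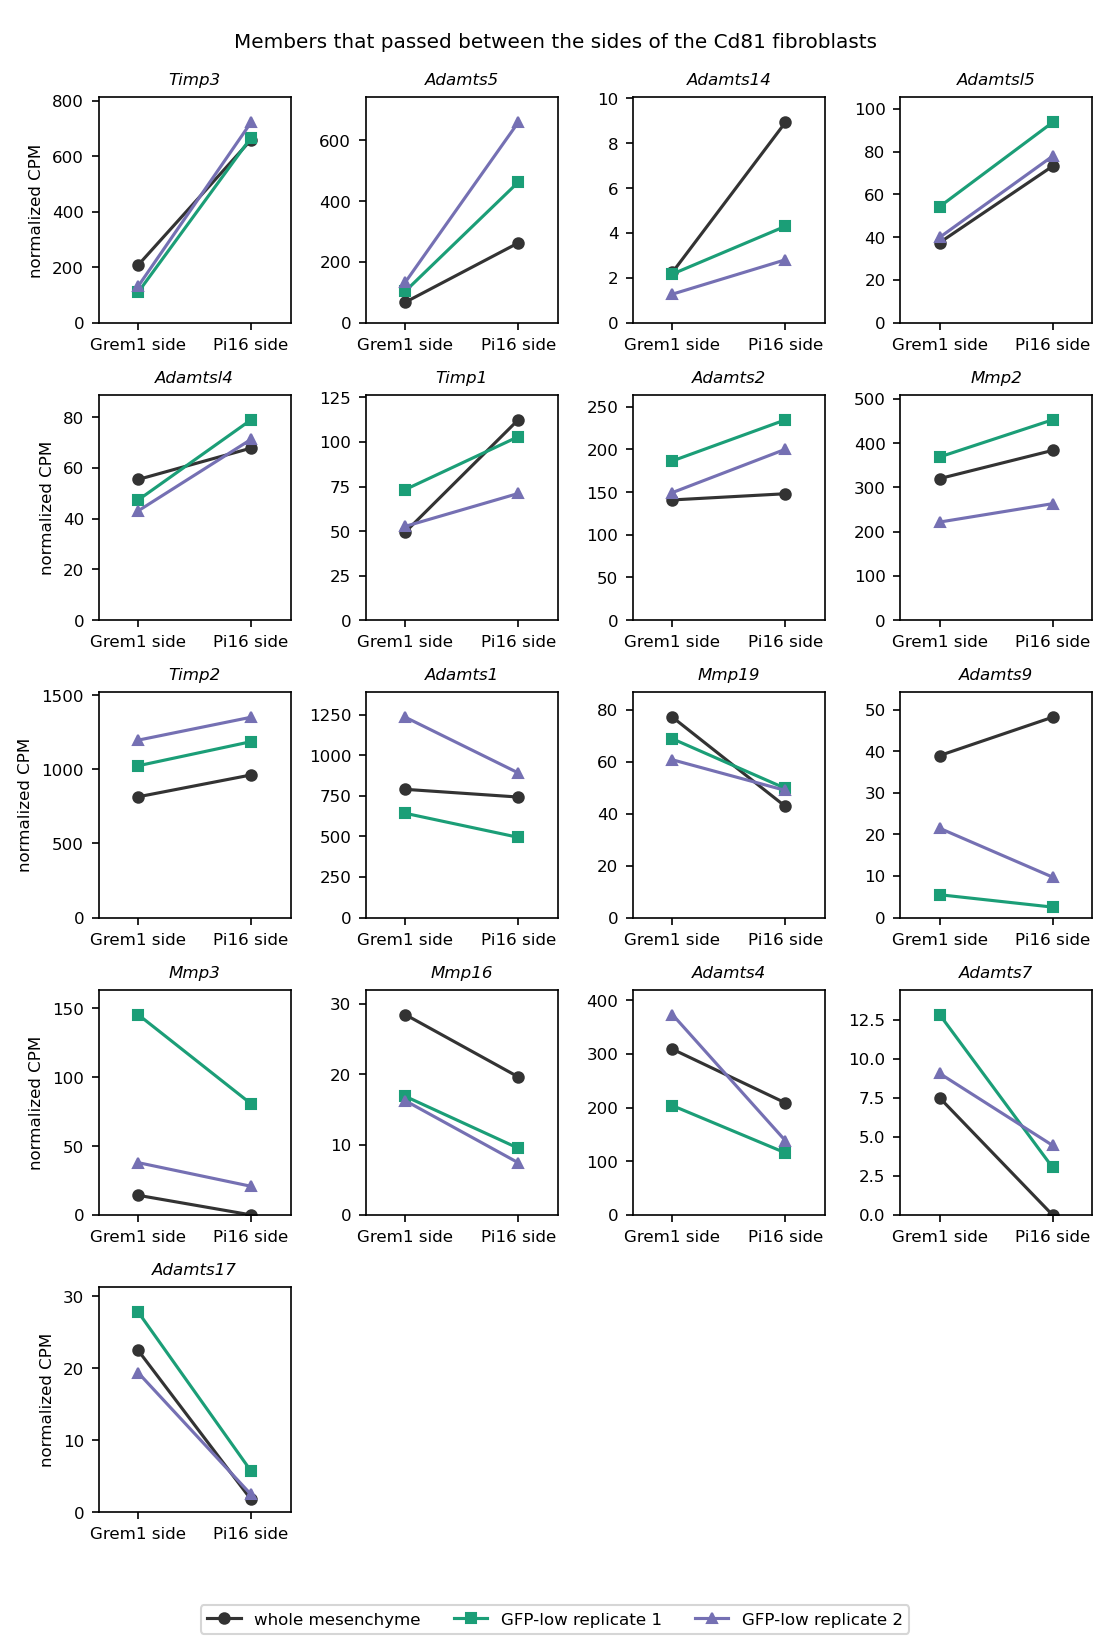
Normalised CPM of the 17 members that passed between the sides of the Cd81 fibroblasts, with 1 line per library from the Grem1 side to the Pi16 side and axes that start at 0. By the fitted log2 differences Timp3 and Adamts5 rise most and Adamts17 falls most. Adamts9 rises in whole mesenchyme while falling in both GFP-low libraries.

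Timp3 was at 658, 666 and 721 CPM on the Pi16 side and at 208, 110 and 131 CPM on the Grem1 side. The sides lay far apart (log2 difference 2.32 ± 0.11, edgeR adjusted p = 8.67e-13). Adamts5 was at 262, 462 and 659 CPM against 67.4, 104 and 133 CPM, without overlap (2.19 ± 0.08, edgeR adjusted p = 1.1e-14). Timp1 was higher in 3 of 3 libraries, at 112, 103 and 71.1 CPM against 49.5, 73.3 and 52.7 CPM with a small overlap (0.53 ± 0.09, edgeR adjusted p = 9.47e-05). With cells thinned to 1000 UMIs it was at 0.34 and did not pass (edgeR adjusted p = 0.263). Timp2 was higher by a smaller 0.21 ± 0.06, and this call was lost without GFP-low 1 (edgeR adjusted p = 0.134), without GFP-low 2 (0.126) and with thinned cells (0.338).

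Adamts14 was at 8.92, 4.3 and 2.8 CPM on the Pi16 side and at 2.25, 2.17 and 1.27 CPM on the Grem1 side, without overlap but on 5 UMIs against 3 in whole mesenchyme (log2 difference 1.14 ± 0.35, edgeR adjusted p = 0.0215). Leaving out either GFP-low library ended this call, with edgeR adjusted p of 0.104 and 0.129. Adamts2 was higher by 0.33 ± 0.08, a call that did not hold without GFP-low 2 (edgeR adjusted p = 0.109) or with thinned cells (0.0938). Mmp2 was higher by 0.27 ± 0.07, and did not pass without GFP-low 1 (edgeR adjusted p = 0.0864) or GFP-low 2 (0.0521). Among the ADAMTS-like genes, Adamtsl5 (0.88 ± 0.08) and Adamtsl4 (0.69 ± 0.08) were higher without overlap. Adamtsl1, Adamtsl2 and Adamtsl3 did not pass. Adamtsl1 was called lower, however, without whole mesenchyme (edgeR adjusted p = 0.0175) and with stricter cell limits (0.0488). It was also called lower without the highest doublet scores (0.0320) and with equal cell numbers (0.0465). Adamts12 did not pass (0.33 ± 0.13, edgeR adjusted p = 0.0758), but did without GFP-low 1 (0.0247) and with no filter on low counts (0.0479).

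Adamts17, an enzyme linked to fibrillin microfibrils, had the largest difference towards the Grem1 side among the tested members. It was at 1.78, 5.73 and 2.47 CPM on the Pi16 side and at 22.5, 27.8 and 19.4 CPM on the Grem1 side. The sides did not overlap (log2 difference -2.58 ± 0.19, edgeR adjusted p = 6.6e-10). Adamts7 had 0 UMIs on the Pi16 side of whole mesenchyme and 3.04 and 4.45 CPM in the GFP-low libraries, against 7.49, 12.8 and 9.06 CPM (-1.56 ± 0.26, edgeR adjusted p = 8.9e-05). Adamts4 was at 209, 116 and 138 CPM against 309, 204 and 373 CPM, lower in 3 of 3 libraries with overlap (-1.03 ± 0.11, edgeR adjusted p = 1.66e-07). Adamts1 was lower by -0.33 ± 0.07. Adamts9 was fitted at -0.84 ± 0.20 (edgeR adjusted p = 0.0035), but it was 48.2 CPM on the Pi16 side of whole mesenchyme against 39 CPM on the Grem1 side, so only 2 of 3 libraries were lower. Without GFP-low 2 it was at -0.34 and did not pass (edgeR adjusted p = 0.608), nor did it with thinned cells, at -0.15 (0.897).

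Mmp3 had 0 UMIs on the Pi16 side of whole mesenchyme, and was at 80.7 and 20.8 CPM in the GFP-low libraries, against 14.2, 145 and 38 CPM on the Grem1 side. It was lower on the Pi16 side in 3 of 3 libraries (log2 difference -0.88 ± 0.11, edgeR adjusted p = 1.34e-06). Mmp16, the membrane protease MT3-MMP, was lower by -0.93 ± 0.16, and Mmp19 was lower without overlap by -0.43 ± 0.09. With cells thinned to 1000 UMIs Mmp16 was at -0.47 (edgeR adjusted p = 0.544) and Mmp19 at -0.28 (0.410), and neither passed. Mmp19 also missed with DESeq2 (adjusted p = 0.0504). Of the members called between the sides, Timp2 (DESeq2 adjusted p = 0.0767), Adamts2 (0.0809), Adamts14 (0.230) and Adamts9 (0.279) missed with DESeq2 as well. Mmp17 did not pass, but was called lower without whole mesenchyme (edgeR adjusted p = 0.0314), with no filter on low counts (0.0432) and with stricter cell limits (0.0410). Mmp10 was not tested here. Dissociation response genes, with 9 of 16 lower and none higher on the Pi16 side, summed to 42000, 37664 and 48051 CPM there and 47628, 40874 and 55723 CPM on the Grem1 side. The part of that response in the lower Adamts1, Adamts4 and Adamts9 was not tested.

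Of 13 substrates and clearance partners 7 were higher on the Pi16 side and 1 lower (median log2 difference 0.21, beside 0.01 for all genes). The proteoglycan versican (Vcan), a substrate of Adamts5, was at 580, 330 and 360 CPM against 251, 183 and 186 CPM (0.97 ± 0.07), and fibronectin (Fn1) was higher by 1.46 ± 0.06. Of 12 cathepsins and other matrix proteases 3 were higher, among them the procollagen C-proteinase Bmp1 (0.41 ± 0.07), and 6 lower, among them Ctsh (-0.84 ± 0.08). Of 8 ADAM genes 4 were higher and 1, Adam23, lower (-2.72 ± 0.13). Of 7 plasminogen system genes 2 were higher and 2 lower, and of 11 activators and other inhibitors 2 were higher, with Pcsk6 at 1.24 ± 0.09, and 3 lower, with cystatin C (Cst3) at -0.75 ± 0.06. Without the library block 3 members were higher and 1 lower, and with cells thinned to 1000 UMIs 4 were higher and 4 lower.

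Among the Adamdec1 fibroblasts, cells with at least 3 UMIs of Cxcl1, Cxcl2, Ccl2, Ccl7, Il6 and Ereg after thinning to 1000 UMIs were compared with cells that had none. Several members are known to be induced by cytokines. There were 2021, 238 and 410 cells with, and 408, 379 and 399 without, the inflammatory markers. Of 30 members tested 7 were higher in cells with the markers and none was lower by edgeR. Across 10661 genes 5.48% were higher and 1.64% lower (7.12% in either direction). At an unadjusted p under 0.05, 3 members were lower, DESeq2 called 4 higher and 0 lower, and with no filter on low counts edgeR called Adamts15 lower. The edgeR calls that DESeq2 did not make were Timp1 (DESeq2 adjusted p = 0.163), Adamts3 (0.579) and Adamtsl4 (0.599). The groups did not overlap for 4 of the 30 members, against 11.9% of all genes. The median log2 difference was 0.19 for the members and -0.02 for all genes. The members that were higher were 3 proteoglycan-cleaving enzymes, Adamts3, Adamtsl4, Timp1 and Timp3, and no MMP passed.

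**Figure D4:**
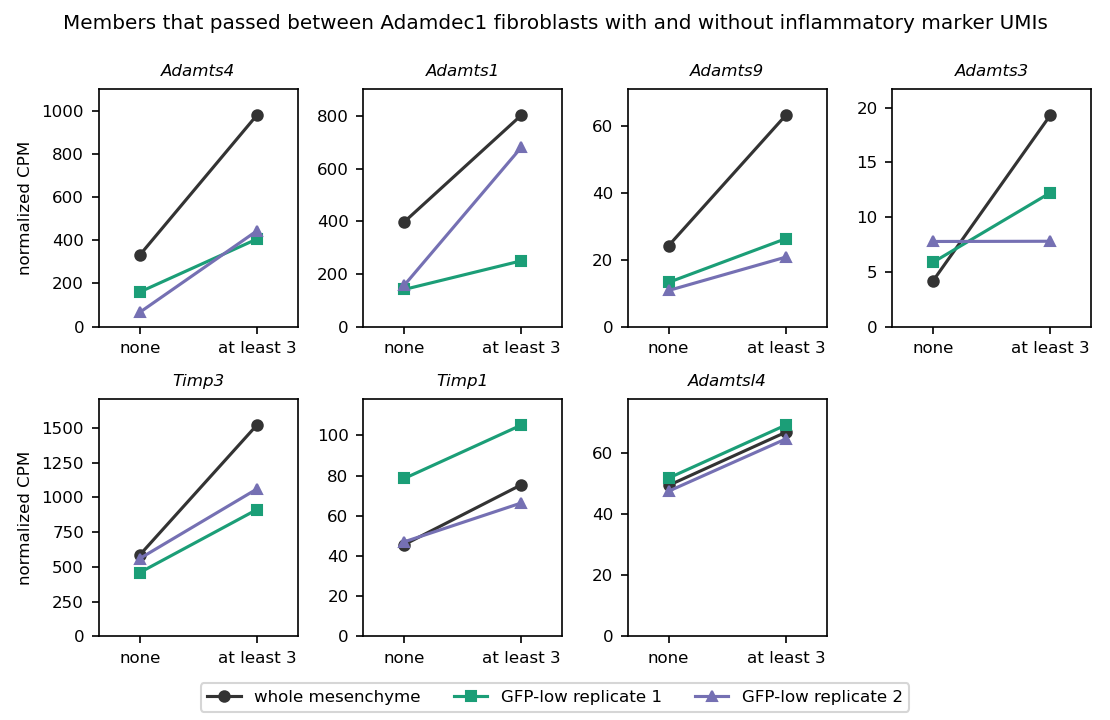
Normalised CPM of the 7 members that passed, in Adamdec1 fibroblasts with no inflammatory marker UMI (left) and with at least 3 (right), with 1 line per library. All 21 lines rise, that of Adamts3 in GFP-low 2 only from 7.77 to 7.79.

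Adamts4 was at 981, 406 and 444 CPM in cells with the markers and at 331, 160 and 65.6 CPM in cells without. The groups did not overlap (log2 difference 1.85 ± 0.19, edgeR adjusted p = 1.83e-05). Adamts1 was at 804, 250 and 682 CPM against 398, 141 and 157 CPM, higher in 3 of 3 libraries with overlap (1.32 ± 0.19, edgeR adjusted p = 0.000269). Adamts9 was at 63.2, 26.3 and 20.8 CPM against 24.2, 13.2 and 10.8 CPM, also with overlap (1.18 ± 0.17, edgeR adjusted p = 0.000258), and with cells thinned to 1000 UMIs it was at 0.70 and did not pass (0.226). The fourth tested enzyme of that group, Adamts5, was at 26, 26.3 and 40.4 CPM against 26.5, 27.9 and 21.6 CPM and did not pass (0.27 ± 0.19).

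Timp3 was at 1520, 912 and 1060 CPM in cells with the markers and 585, 459 and 560 CPM in cells without, and the groups did not overlap (log2 difference 1.10 ± 0.11, edgeR adjusted p = 1.11e-05). Timp1 was at 75.5, 105 and 66.4 CPM against 45.6, 78.6 and 47 CPM (0.55 ± 0.11, edgeR adjusted p = 0.00633), and it no longer passed without whole mesenchyme (0.147) or with thinned cells, at 0.23 (0.752). Timp2 did not pass, at 0.20 ± 0.11. Adamts3 was at 19.3, 12.2 and 7.79 CPM against 4.19, 5.87 and 7.77 CPM, so that GFP-low 2 barely moved. Its log2 difference of 1.16 ± 0.33 (edgeR adjusted p = 0.0451) was 0.51 and did not pass without whole mesenchyme (edgeR adjusted p = 0.627). Adamtsl4 was higher by 0.43 ± 0.11 without overlap (edgeR adjusted p = 0.0275), and did not pass without whole mesenchyme (0.232) or without GFP-low 2 (0.0914).

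Mmp2 was at 510, 571 and 386 CPM with the markers and 520, 561 and 378 CPM without, a log2 difference of 0.01 ± 0.10 (edgeR adjusted p = 0.968). Mmp14 was fitted at -0.12 ± 0.11 and Mmp3 at -0.24 ± 0.27, neither of which passed. Mmp10 was at 3.8, 5.5 and 0 CPM against 10.2, 2.94 and 1.29 CPM, with no common direction.

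The dissociation response moved with the markers. Of its 16 genes 14 were higher and none lower, with a median log2 difference of 1.31, and its sum was 52503, 41837 and 50674 CPM in cells with the markers against 30387, 22628 and 15370 CPM without. The part of that response, which cells mount when tissue is digested, in the 7 higher members was not tested. Of 7 plasminogen system genes 3 were higher and none lower, among them the urokinase receptor Plaur, at 40.8, 30.6 and 23.7 CPM against 15.8, 12.5 and 6.91 CPM (1.44 ± 0.17), and Plat (0.74 ± 0.15). Tfpi2, an inhibitor of matrix serine proteases, was the only one of 10 activators and other inhibitors that passed (2.21 ± 0.26), and Cd44 the only one of 13 substrates and clearance partners (0.40 ± 0.11). None of 12 cathepsins and other matrix proteases and none of 6 ADAM genes passed by edgeR. Without the library block no member passed. Without whole mesenchyme 4 members were higher, and with cells thinned to 1000 UMIs 3 were.

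Of the members called both between the fibroblast classes and between the sides, Adamts5, Adamtsl5 and Timp2 were higher in Cd81 fibroblasts and on the Pi16 side. Adamts1, Adamts17 and Mmp3 were higher in Cd81 fibroblasts and lower on the Pi16 side. Adamts14, Mmp2 and Timp3 were lower in Cd81 fibroblasts and higher on the Pi16 side. The comparisons share cells, and no test of their difference was made.

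Whole mesenchyme was finally set beside the GFP-low libraries within each fibroblast class, without a test since it is 1 library. A member stood apart when its level lay at least 2-fold outside both GFP-low levels, among genes with at least 30 UMIs, in CPM of the class. In Adamdec1 fibroblasts 2 of 31 members were higher in whole mesenchyme and none lower, where 2.14% of all genes were higher and 1.07% lower. Adamts4 was at 761 CPM against 263 and 222 CPM, and Adamts9 at 49.2 CPM against 17.9 and 15 CPM. In Cd81 fibroblasts 1 of 31 members was higher and 1 lower, beside 1.87% and 0.969% of all genes. Adamts9 was at 36.7 CPM against 4.76 and 16.5 CPM, and Mmp3 at 8.63 CPM against 122 and 28.7 CPM. The GFP-low replicates themselves differed 4.26-fold in Mmp3 of Cd81 fibroblasts. Genotype, sort and library cannot be told apart in this comparison, and the dissociation response of Adamdec1 fibroblasts was also higher in whole mesenchyme (46930 CPM against 30755 and 33583).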

How the data were processed

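The members, gene lists and tests were chosen with earlier results of these data known. Every library is a table of deposited UMI counts, which the authors made with Cell Ranger 3.0.2, per the submitters' processing notes, on mm10, per the file headers. Total UMIs were 41863444 (whole mesenchyme), 39190629 (GFP-low 1) and 52313765 (GFP-low 2). Cells with at least 1000 UMIs, 500 genes and at most 20% mitochondrial UMIs were kept.

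Scrublet (in scanpy 1.11.5) marked 2, 3 and 3 cells as doublets, so it has not worked and no doublets were removed. Gates used fixed markers, with limits set after marker values had been seen. Between the fibroblast classes 290, 371 and 311 cells were left out, and between the telocyte limits 436, 104 and 125. A class needed 20 cells in a library, which left out 15 whole mesenchyme immune cells.

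UMI counts summed per library and class were tested with edgeR 4.0.16 (R 4.3.3; filterByExpr, TMM, quasi-likelihood test, Benjamini-Hochberg adjustment over all genes tested, threshold 0.05). Each library supplies both sides of a comparison, so the library pairs them and is the block. CPM of a class carry exact Poisson 95% intervals, which cover counting error only. The GFP-low libraries were not duplicates of each other (chi-square divided by its degrees of freedom 52.7 for Adamdec1 and 188 for Cd81 fibroblasts). Tested on simulated data, the fits recovered 86% of 2-fold changes between the fibroblast classes (12651 genes). They recovered 92% between the Pi16 and Grem1 sides (11567 genes) and 76.1% for the inflammatory markers (10567 genes). These are shares of the changed genes that were tested (100, 100 and 88), and 10, 9 and 5 unchanged genes were called.

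Members were named with values if a test's filter kept them or if a class held at least 20 UMIs. From every other list up to 4 genes were named, those with the largest changes of the same sign in all libraries. Alternatives were DESeq2 1.42.0, RLE factors, no filter, no block, leaving out a library, stricter cell limits, removing the 6% highest doublet scores, thinning, equal cell numbers and, between the fibroblast classes, clusters and a stricter gate. The other samples were not analysed here. The values of 1 gene of the plasminogen system are not reported here.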

Additional observations from a re-analysis of the deposited data

Results flagged for a closer look

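In 9 cases a member's difference had 1 sign in whole mesenchyme and the opposite sign in both GFP-low libraries; in each the difference between the groups was not tested. Values are log2 differences of normalised CPM with 0.5 CPM added, for whole mesenchyme, GFP-low 1 and GFP-low 2. Between Cd81 and Adamdec1 fibroblasts this held for Adamts2, at -0.185, 0.15 and 0.10. Between the Pi16 and Grem1 sides it held for Adamts9, at 0.303, -0.99 and -1.10, which nevertheless passed as lower. On the same sides Adamts3 was at -0.498, 0.65 and 0.70, and Adamts19 at 0.062, -0.26 and -0.20. In cells with against without inflammatory marker UMIs, Adamtsl1 was at -0.247, 0.08 and 0.57, and Mmp17 at -0.35, 0.68 and 0.68. Adamts17 was at 0.061, -0.35 and -0.20, Mmp19 at 0.0112, -0.08 and -0.08, and Mmp2 at -0.0279, 0.03 and 0.03. None of these passed the test except Adamts9.

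Mmp7, which encodes matrilysin, a protease best known from epithelium and Paneth cells, had 0 UMIs in the cells of all 3 libraries. Outside the cells, GFP-low 1 held 142 UMIs of Mmp7 over 140 barcodes, against 2 UMIs in GFP-low 2 and 0 in whole mesenchyme. These UMIs entered no comparison, and Mmp7 was singled out after its values were seen.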

How the results depend on the processing

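Fits without the replicate block, which ignore that both sides come from the same libraries, called fewer members: 5 higher and 5 lower between the fibroblast classes, 3 higher and 1 lower between the Pi16 and Grem1 sides, and 0 higher with inflammatory markers. With cells thinned to 1000 UMIs, 4 were higher and 4 lower between the sides and 3 higher with the markers, where fewer members passed the filter (25 and 19). For the markers DESeq2 called 4 higher, and without a filter on low counts 1, Adamts15, was lower. Leaving out 1 library gave 10 to 12 higher and 8 to 9 lower members between the classes, 6 to 10 higher and 7 to 10 lower between the sides, and 4 to 7 higher and 0 lower with the markers, the 4 without whole mesenchyme. Of the called members 9 of 20, 4 of 17 and 0 of 7 passed under all alternatives run, and 15, 9 and 3 under all but the fit without the block. No called member changed sign under any alternative run. Among those not called, the log2 difference changed sign as follows, and the cause was not tested. Between the classes, leaving out a library gave 0.0008143 to -0.9143 for Adamts4, -0.05811 to 0.3031 for Mmp16 and -0.02622 to 0.1379 for Adamts2, and thinning gave -0.2072 for Adamtsl4 and -0.2439 for Mmp17. Between the sides, leaving out a library gave -0.07901 to 0.5467 for Adamtsl2. With the markers, leaving out a library gave -0.1179 to 0.3193 for Adamtsl1, -0.036 to 0.7444 for Mmp17, -0.2936 to 0.005105 for Adamts17, -0.002796 to 0.02915 for Mmp2, -0.05316 to 0.4433 for Adamts5 and -0.1653 to 0.03303 for Adamts19. There, removing high doublet scores gave 0.002546 for Mmp19 and 0.02995 for Adamts19, thinning gave 0.375 for Adamtsl2, -0.2437 for Adamtsl1 and 0.3012 for Mmp19, and equal cell numbers gave -0.0002093 for Mmp2. Telocyte-like cells of the GFP-low libraries (23 and 29) and glia, pericytes and lymphatic endothelium were too few for firm levels of low genes.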
